A study of Mus musculus with 28 samples.

Results

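The vascular response to skin wounding was described through 10 genes: Vegfa, Pgf, Kdr, Flt1, Angpt2, Tek, Apln, Esm1, Pecam1 and Cdh5. They were taken by symbol from the gene count matrix, which holds 29068 genes, and all 10 were among the 18107 genes with enough counts to be tested. RNA sequencing was carried out on 28 libraries of back skin from C57BL/6J (MLKL+/+) mice left to natural wound healing, 4 libraries on each of 7 days labelled Day0, Day3, Day5, Day7, Day10, Day12 and Day14. The labels name Day0 as the control. The study counts the day of injury as day 1 and lists it as the earliest collection, and the labels do not say when Day0 skin was taken relative to the punch. All mice carried the same genotype and received no agent, and the study's methods describe 8-week-old animals with a full-thickness punch wound on the back. The whole wound site was collected, with its scab and margins, so each library is a mixture of new tissue and the skin at the edge. The labels do not say whether the 4 libraries of a day came from separate mice, and p-values therefore measure only the spread between these samples, which may be technical.

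New vessels in a wound form by sprouting. Hypoxic or inflamed tissue secretes VEGF-A, which acts on the endothelial receptor VEGFR2 (Kdr), while VEGFR1 (Flt1) binds VEGF-A and placental growth factor (Pgf) tightly and limits how much ligand reaches VEGFR2. Angiopoietin-2 (Angpt2) is released by activated endothelium and modulates the receptor Tie2 (Tek), which otherwise keeps vessels quiet. Apelin (Apln) and endocan (Esm1) are secreted products of sprouting tip cells. PECAM-1 (Pecam1) and VE-cadherin (Cdh5) are junction proteins present in endothelium at large, of which Pecam1 is also carried by platelets and leukocytes.

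Total counts ran from 36706513 to 40655764 per library (median 39499595). Gene levels are given as the deposited FPKM, fragment counts scaled for gene length and library total, and changes as log2 fold changes of the counts with their standard errors. A gene was called when its p, adjusted by the Benjamini-Hochberg method over all 18107 genes, was under 0.05. Markers of skin were plentiful on Day0 (Krt14 834 ± 395 FPKM, Dcn 1684 ± 961 FPKM, SD, n = 4), and so were those of skeletal muscle (Acta1 4221 ± 1051 FPKM). The Day0 libraries differed from each other more than those of any other day: the biological coefficient of variation was 26.4% on Day0 and 5.70% to 10.8% on the 6 wound days. Libraries 1 and 4 of Day0 held less dermal fibroblast RNA (5121 and 3048 summed FPKM of 6 marker genes, against 11799 and 11369 in libraries 2 and 3) and more muscle RNA (12859 and 13708 against 8323 and 8608 summed FPKM). They also held more RNA of basal and wound edge keratinocytes (2737 and 2897 against 1392 and 1436 summed FPKM of 6 genes) and of neutrophils (53.7 and 63.2 against 17.6 and 14.9 summed FPKM of 6 genes). The members' comparisons with Day0, in counts and relative to Cdh5, were recomputed with each pair as the only Day0 libraries, an alternative chosen after the data were seen, and the changed calls that bear on a result are given beside it.

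The promoters of Apln and Esm1, which rose by the largest folds, are shown because these genes carried the strongest responses and peaked on different days, Day3 and Day10. Each run is the 250 bases before the annotated start of transcription, written along the gene's strand, from RefSeq on GRCm38.p6. For Apln it lies at chrX:48034854-48035103 on the minus strand and for Esm1 at chr13:113209409-113209658 on the plus strand. Capitals mark matches, on either strand, to AGGAAG, a core bound by ETS factors.

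Apln: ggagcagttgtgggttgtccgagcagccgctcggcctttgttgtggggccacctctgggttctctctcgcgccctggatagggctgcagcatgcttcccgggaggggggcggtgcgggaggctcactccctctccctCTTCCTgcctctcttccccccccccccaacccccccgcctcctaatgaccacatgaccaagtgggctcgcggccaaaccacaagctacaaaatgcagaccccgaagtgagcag

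Esm1: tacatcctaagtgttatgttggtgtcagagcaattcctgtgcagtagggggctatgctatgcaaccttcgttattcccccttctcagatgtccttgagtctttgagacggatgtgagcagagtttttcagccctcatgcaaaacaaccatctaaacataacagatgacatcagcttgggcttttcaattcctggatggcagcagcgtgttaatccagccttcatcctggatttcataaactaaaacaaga

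The Apln window held AGGAAG on the opposite strand at position -113 from the start, and 65.2% of its bases were G or C. The Esm1 window had 44.0% G or C and held none of the 4 motifs searched on both strands, which were ACGTG (the core of the hypoxia response element), CGGAAG and AGGAAG (ETS cores) and TATAAA. Over all 32851 promoter windows of the same length, ACGTG was found in 16.6%, CGGAAG in 13.6%, AGGAAG in 29.5% and TATAAA in 12.4%. A window was found for 7 of the 10 genes. Among the other members, the window of Flt1 held AGGAAG at positions -129 and -53 and TATAAA at position -31, and the second of the Vegfa windows held ACGTG at position -211. The first Vegfa window and those of Pgf, Kdr and Tek held none. The second Vegfa window overlapped 9 annotated exon entries, the Kdr window 3 and each Pgf window 1. A match is a description of the letters only.

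Most members rose by Day3, held or declined to Day10, and were lower again by Day12. Esm1 had its highest mean on Day10, Tek was not called higher on any day, and Pgf had a mean of 1.34 FPKM on Day7 between 2.09 on Day5 and 2.03 on Day10. Against Day0, 9 of the 10 genes were called higher on Day3 (31.8% of all tested genes were called higher), 8 on Day5 (29.0%), 7 on Day7 (25.6%) and 6 on Day10 (23.5%). No member was called lower on those days, when 34.8%, 30.6%, 24.8% and 26.9% of tested genes were. On Day12 the count was 2 higher and 4 lower, beside 21.7% and 25.6% of tested genes, and on Day14 again 2 higher and 4 lower, beside 28.2% and 34.5%. The median log2 fold change of the members was 0.97 on Day3, 0.88 on Day5, 0.50 on Day7, 0.38 on Day10, -0.25 on Day12 and -0.15 on Day14, while the median over all tested genes stayed between -0.06 and 0.00. Libraries were also compared one by one in log2 CPM, counts scaled to a normalized library total. On that scale all 4 were above every Day0 library for 8 members on Day3 (28.2% of tested genes), 8 on Day5 (23.0%), 6 on Day7 (19.9%), 6 on Day10 (19.5%), none on Day12 (18.6%) and 1 on Day14 (23.4%). All 4 were below every Day0 library for 2 members on Day12 (20.2%) and 4 on Day14 (27.3%), and for none from Day3 to Day10 (28.6%, 23.2%, 19.3% and 21.9%). In FPKM, Kdr on Day5 and Angpt2 on Day14, apart in log2 CPM, overlapped Day0. In turn Kdr on Day7, Angpt2 on Day12 and Apln on Day12 and Day14 overlapped in log2 CPM but were above every Day0 library in FPKM. The comparisons of the 6 wound days share the Day0 libraries. In bulk tissue, more or fewer cells of a type and more or less RNA per cell cannot be told apart. The study's own criteria, a log2 fold change over 1.5 with an unadjusted p under 0.05, were applied to the edgeR fit, where the study used DESeq2. Under them only Apln was called higher on Day3 (6.50% of tested genes), Apln and Esm1 on Day5 (5.61%), Day7 (4.66%) and Day10 (4.33%), Esm1 alone on Day14 (5.15%), and none on Day12 (3.89%). The Day14 change of Esm1, 1.51, was close to the limit.

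**Figure D1:**
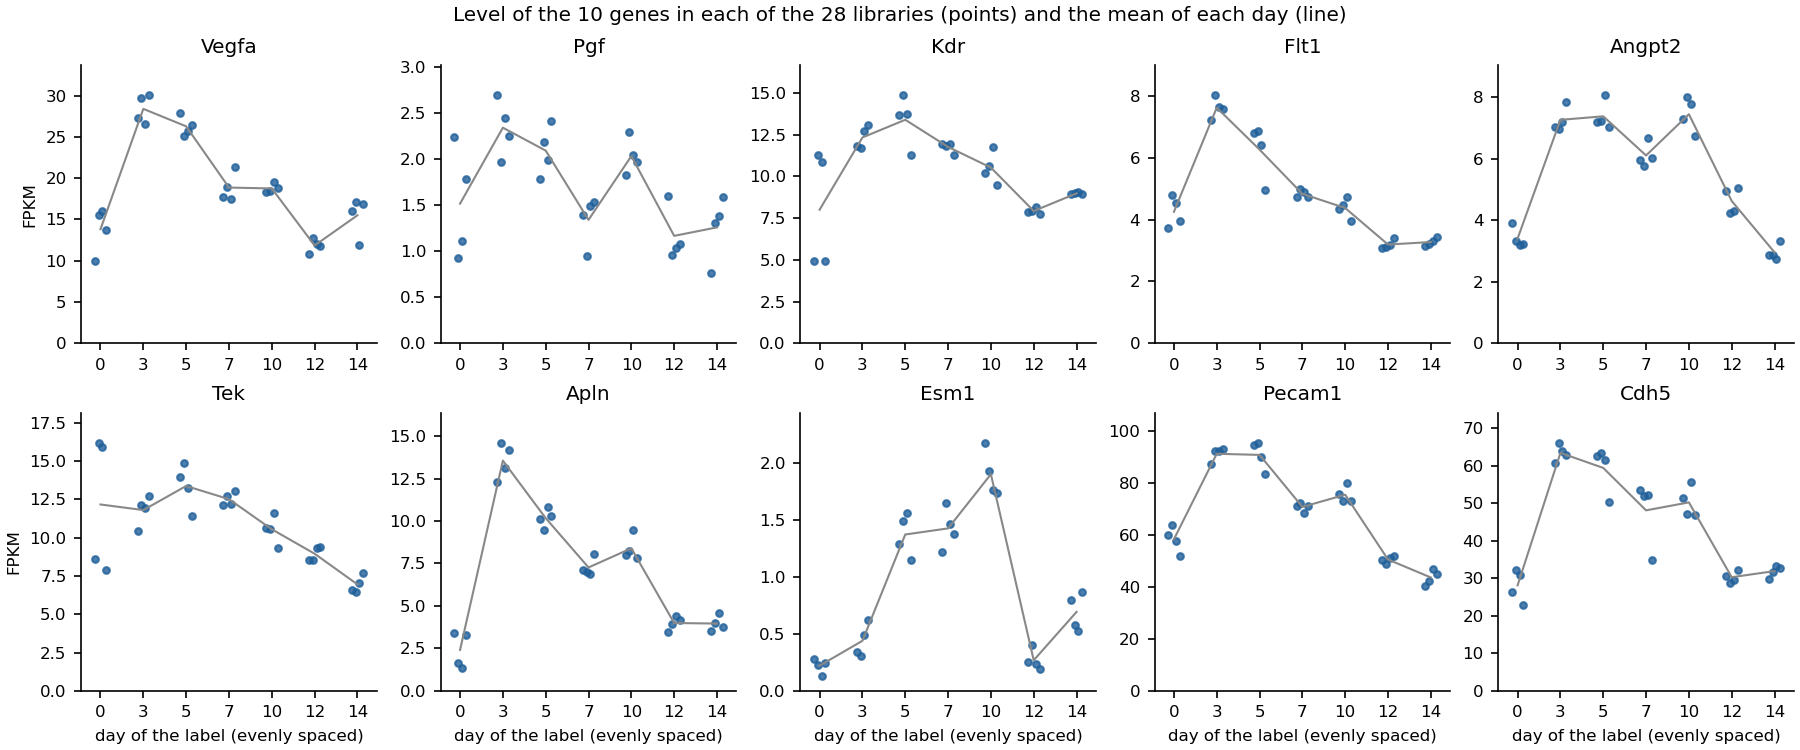
FPKM (y axis, from 0) of each of the 10 genes in the 28 libraries, by day of the label with days evenly spaced on the x axis. Points are libraries and the line joins the means of 4 libraries. Apln peaks on Day3, Esm1 on Day10, and the Day0 points of Kdr and Tek lie in a low and a high pair.

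Vegfa (chromosome 17, 46016993 to 46032377 on GRCm38.p6) encodes VEGF-A. The Day0 libraries held 9.98, 15.5, 16.0 and 13.8 FPKM, those of Day3 27.3, 29.7, 26.5 and 30.1 FPKM, and those of Day5 27.9, 25.1, 25.7 and 26.4 FPKM. All 8 libraries of Day3 and Day5 were above every Day0 library, by 2.14-fold on Day3 (log2 fold change 1.10 ± 0.10 SE, adjusted p = 3.4e-10) and 1.96-fold on Day5 (adjusted p = 4.95e-09). The level then stepped down to 18.9 ± 1.75 FPKM on Day7 (SD, n = 4), 18.7 ± 0.54 on Day10 and 11.8 ± 0.81 on Day12. On Day7 and Day10 it was still called above Day0 (1.36-fold, adjusted p = 0.00068, and 1.31-fold, adjusted p = 0.00253). Day12 was its lowest day, with 10.8, 12.8, 12.0 and 11.8 FPKM. It was called below Day0 there (log2 fold change -0.37 ± 0.10, adjusted p = 0.00465), but the libraries of the 2 days overlapped. The Day12 call rests on the Day0 libraries: with libraries 1 and 4 as the only Day0 libraries the Day12 change was -0.14 (adjusted p = 0.34), and with libraries 2 and 3 the Day10 change was 0.20 (adjusted p = 0.0634). On Day14 (15.5 ± 2.47 FPKM) Vegfa was not called, but against libraries 1 and 4 alone it was higher by 0.33 (adjusted p = 0.0125).

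Pgf (chromosome 12, 85166637 to 85177785), another ligand of VEGFR1, was weakly expressed, with 65 to 229 counts per library. The Day0 libraries held 2.24, 0.929, 1.11 and 1.79 FPKM, and those of Day3 2.70, 1.97, 2.45 and 2.26 FPKM, so that the groups overlapped. Pgf was called higher on Day3 alone (1.60-fold, log2 fold change 0.68 ± 0.23, adjusted p = 0.0101). The exact permutation test of the mean log2 CPM of the 4 Day3 against the 4 Day0 libraries gave p = 0.0571, where the smallest p this design can reach is 0.0286. The Day3 call was lost when only the 8 libraries of the 2 days were fitted (adjusted p = 0.055) and with Day0 libraries 1 and 4 alone (adjusted p = 0.224). With Day0 libraries 2 and 3 alone Pgf was called higher on Day5 and Day10 as well (adjusted p = 0.000196 and 0.00107). With libraries 1 and 4 alone it was called lower on Day7, Day12 and Day14 (log2 fold change -0.60, -0.92 and -0.73, adjusted p = 0.0276, 0.0014 and 0.00655). Day10 held 1.83, 2.29, 2.04 and 1.97 FPKM, and the lowest mean was that of Day12 (1.17 ± 0.29 FPKM).

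Kdr (chromosome 5, 75932827 to 75979072), the main signalling receptor for VEGF-A, had the clearest split on Day0: 4.91, 11.3, 10.9 and 4.93 FPKM in libraries 1 to 4. The wound libraries were tight, at 11.8, 11.7, 12.7 and 13.1 FPKM on Day3, 13.7, 14.9, 13.7 and 11.3 on Day5, and 12.0, 11.8, 11.9 and 11.3 on Day7. Every Day3 library exceeded every Day0 library, the higher pair by a small margin. The calls were 1.60-fold higher on Day3 (adjusted p = 0.000981), 1.72-fold on Day5 (adjusted p = 0.000273) and 1.47-fold on Day7 (adjusted p = 0.00825). With only the 8 libraries of each pair of days in the fit these became adjusted p = 0.0731, 0.0503 and 0.176. Against Day0 libraries 2 and 3 alone the Day7 change shrank to 0.09 on the log2 scale (adjusted p = 0.386). From Day10 on the direction of Kdr depended on which Day0 pair was used. Against libraries 2 and 3 it was -0.12 on Day10 (adjusted p = 0.219) and -0.62 on Day12 (adjusted p = 7.91e-08), and against libraries 1 and 4 it was 1.04 (adjusted p = 2.77e-11) and 0.56 (adjusted p = 3.18e-06). On Day14 it was -0.42 against libraries 2 and 3 (adjusted p = 2.8e-05) and 0.81 against libraries 1 and 4 (adjusted p = 2.13e-09), where all 4 together gave 0.04 ± 0.17 (adjusted p = 0.849).

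Flt1 (chromosome 5, 147561604 to 147726438) encodes VEGFR1, both as a membrane receptor and as a soluble decoy, which gene counts do not separate. It stood at 3.72, 4.80, 4.53 and 3.97 FPKM on Day0 and at 7.22, 8.03, 7.65 and 7.59 FPKM on Day3. The groups were far apart, at 1.86-fold (log2 fold change 0.90 ± 0.08, adjusted p = 1.9e-10). Flt1 had lost part of its rise by Day5 (6.81, 6.87, 6.43 and 4.95 FPKM, log2 fold change -0.30 ± 0.08 against Day3, adjusted p = 0.0076). On Day7 (4.83 ± 0.13 FPKM) and Day10 (4.38 ± 0.33 FPKM) its libraries overlapped those of Day0 and neither day was called, although against Day0 libraries 1 and 4 alone Day7 was higher by 0.32 (adjusted p = 0.00321). On Day12 and Day14 it fell below Day0, to 3.19 ± 0.15 and 3.28 ± 0.13 FPKM, with all 4 libraries of each day below every Day0 library (0.68-fold, adjusted p = 3.12e-06, and 0.71-fold, adjusted p = 6.53e-06).

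The co-receptors and further ligands of the family did not move as a block. Of the 6 genes of this list outside the members (Vegfb, Vegfc, Vegfd, Nrp1, Nrp2 and Flt4), 3 were called higher and 1 lower on each of Day3, Day5, Day7 and Day10, and 1 higher and 5 lower on Day14. Over the 6 wound days 21.7% to 31.8% of all tested genes were called higher and 24.8% to 34.8% lower. The counts of this list and of each list below stand beside those shares. Nrp1, the neuropilin that presents VEGF-A to VEGFR2, rose from 12.6 ± 1.99 FPKM on Day0 to 23.8 ± 0.41 on Day3 (log2 fold change 0.98 ± 0.08, adjusted p = 6.85e-12). Nrp2, the neuropilin more often tied to lymphatic growth, was highest on Day7 at 19.2 ± 0.39 FPKM (log2 fold change 0.82 ± 0.08, adjusted p = 4.63e-09). Vegfb, a VEGFR1 ligand linked to metabolic tissue, went the other way and fell on Day3 from 35.7 ± 3.43 to 19.3 ± 1.06 FPKM (log2 fold change -0.83 ± 0.08, adjusted p = 1.57e-09). Flt4, the receptor VEGFR3 of lymphatic endothelium, was not called on Day3 or Day7 and was lower on Day14 (1.89 ± 0.22 against 4.47 ± 1.14 FPKM, adjusted p = 4.37e-09).

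Angpt2 (chromosome 8, 18690263 to 18741562) was called higher on each day from Day3 to Day12. Day0 libraries held 3.91, 3.32, 3.18 and 3.22 FPKM. Day3 libraries held 7.02, 6.99, 7.21 and 7.85 FPKM, and those of Day10 still 7.30, 8.002, 7.77 and 6.73 FPKM. It was 2.22-fold above Day0 on Day3 (log2 fold change 1.15 ± 0.08, adjusted p = 1.85e-12), 2.23-fold on Day5 (adjusted p = 2.61e-12), 1.79-fold on Day7 (adjusted p = 2.5e-09) and 2.11-fold on Day10 (adjusted p = 2.94e-11), with no overlap on any of these days. On Day12 it was 4.63 ± 0.42 FPKM, a call of 1.23-fold (adjusted p = 0.00479) that became adjusted p = 0.055 against Day0 libraries 1 and 4 alone. Day14 libraries held 2.86, 2.88, 2.75 and 3.34 FPKM, called below Day0 (log2 fold change -0.33 ± 0.09, adjusted p = 0.00133). Without Day0 library 1, the highest of its group, the Day14 change was -0.18 (adjusted p = 0.073).

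Its receptor gene Tek (chromosome 4, 94739086 to 94874976) behaved differently. The Day0 libraries held 8.63, 16.2, 15.9 and 7.90 FPKM, with the same libraries low as for Kdr. All 16 libraries from Day3 to Day10 lay within that range, between 9.35 and 14.9 FPKM, and none of the 4 days was called against Day0. Against Day0 libraries 2 and 3 alone Tek was lower on Day3 (log2 fold change -0.38, adjusted p = 0.000374), and against libraries 1 and 4 alone it was higher (0.62, adjusted p = 2.11e-06), so no direction can be read. The same held on Day5 (-0.22, adjusted p = 0.0357, and 0.74, adjusted p = 1.17e-07), Day7 (-0.36, adjusted p = 0.00115, and 0.59, adjusted p = 6.56e-06) and Day10 (-0.65, adjusted p = 1.8e-07, and 0.30, adjusted p = 0.0113). Late in the course it was low: 8.96 ± 0.46 FPKM on Day12 and 6.60, 6.45, 7.06 and 7.70 FPKM on Day14, all below every Day0 library on the latter day (0.52-fold, log2 fold change -0.93 ± 0.15, adjusted p = 5.9e-06). The Day14 call held with either Day0 pair, whereas the Day12 call (log2 fold change -0.59 ± 0.15, adjusted p = 0.00215) fell to -0.02 with libraries 1 and 4 alone (adjusted p = 0.905).

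Of the 6 partner genes of the angiopoietin and apelin axes, 3 were called higher and 1 lower on Day3, and 1 higher and 4 lower on Day14. Tie1, the orphan relative of Tie2, was at 11.4 ± 0.57 FPKM on Day0, rose to 17.5 ± 0.56 on Day3 (log2 fold change 0.68, adjusted p = 1.2e-10) and reached 20.8 ± 0.41 on Day5. Angpt1, the Tie2 agonist supplied by mural cells, varied less, between 2.94 ± 0.22 FPKM on Day14 and 5.14 ± 0.53 on Day7. Angpt4, a further Tie2 ligand, was scarce (0.97 ± 0.76 FPKM on Day0) and lower on Day14 (0.13 ± 0.07 FPKM, adjusted p = 2.23e-06).

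Apln (chromosome X, 48025146 to 48034853) changed by the largest fold of the 10 genes on Day3. Day0 libraries held 3.40, 1.62, 1.32 and 3.31 FPKM and Day3 libraries 12.3, 14.6, 13.1 and 14.2 FPKM. The groups were far apart, and the change was 5.85-fold (log2 fold change 2.55 ± 0.18, adjusted p = 1.61e-12). Apln then fell to 10.2 ± 0.57 FPKM on Day5 (4.34-fold above Day0), stood at 7.26 ± 0.54 on Day7 (3.01-fold) and 8.39 ± 0.74 on Day10 (3.36-fold), and was called higher on each of these days. On Day12 and Day14 it was 3.99 ± 0.41 and 3.96 ± 0.47 FPKM, still called above Day0 (log2 fold change 0.58 ± 0.18, adjusted p = 0.0104, and 0.59 ± 0.18, adjusted p = 0.00656). In log2 CPM the libraries overlapped those of Day0. In FPKM they lay narrowly above them (lowest 3.44 on Day12 and 3.50 on Day14, highest 3.40 on Day0). Against Day0 libraries 1 and 4, the higher pair, the Day12 and Day14 changes were 0.12 (adjusted p = 0.427) and 0.19 (adjusted p = 0.163). That pair was also the one higher in keratinocyte and neutrophil RNA, whose part in the Day0 level of Apln was not tested. The receptor gene Aplnr rose beside its ligand, from 6.47 ± 2.20 FPKM on Day0 to 29.2 ± 0.82 on Day3 and 30.1 ± 0.73 on Day7 (log2 fold change 2.23 ± 0.13 on Day3, adjusted p = 2.01e-14). It was 13.6 ± 0.89 FPKM on Day14. Apela, a second ligand of that receptor, was near the detection limit, at 0.13 ± 0.11 FPKM on Day0.

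Esm1 (chromosome 13, 113209659 to 113218104) was the scarcest of the 10, with 11 to 177 counts per library, and had its highest mean on Day10. Day0 libraries held 0.280, 0.223, 0.133 and 0.246 FPKM and those of Day3 0.342, 0.305, 0.486 and 0.622 FPKM, which did not overlap (2.06-fold, log2 fold change 1.05 ± 0.26, adjusted p = 0.000939). Day5 libraries held 1.28, 1.49, 1.56 and 1.15 FPKM. The step from Day3 to Day5 was itself called (log2 fold change 1.62 ± 0.23, adjusted p = 4.2e-06), the only increase called for a member between those days. Day10 libraries reached 2.18, 1.93, 1.76 and 1.73 FPKM, 8.24-fold above Day0 (log2 fold change 3.04 ± 0.24, adjusted p = 5.07e-11). On Day12 Esm1 was back at 0.249, 0.398, 0.235 and 0.190 FPKM, overlapping Day0 and not called (adjusted p = 0.71), and on Day14 it was at 0.795, 0.577, 0.528 and 0.867 FPKM, higher than every Day0 library (2.86-fold, adjusted p = 7.99e-06). Of 12 other genes on the list of tip cell and sprouting genes, 8 were called higher and 2 lower on Day3, 9 higher and 2 lower on Day10, 4 higher and 4 lower on Day12, and 5 higher and 5 lower on Day14. Of all tested genes, 31.8% and 34.8% were called on Day3, 23.5% and 26.9% on Day10, 21.7% and 25.6% on Day12, and 28.2% and 34.5% on Day14. Cxcr4, a chemokine receptor of tip cells that leukocytes also carry, rose most on Day3 (4.00 ± 1.93 to 20.1 ± 0.91 FPKM, adjusted p = 4.42e-12). Cd34, also a fibroblast and stem cell gene, fell (217 ± 83.2 to 91.3 ± 1.64 FPKM, adjusted p = 4.73e-08), by -1.60 on the log2 scale against Day0 libraries 2 and 3 alone and -0.58 against libraries 1 and 4 alone, both called.

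Pecam1 (chromosome 11, 106654213 to 106715281) and Cdh5 (chromosome 8, 104101613 to 104144504) were the most abundant of the 10. Pecam1 stood at 60.0, 63.8, 57.7 and 52.1 FPKM on Day0 and 87.4, 92.5, 92.3 and 93.1 FPKM on Day3 (1.63-fold, log2 fold change 0.70 ± 0.06, adjusted p = 1.05e-10). It stayed there on Day5 (90.9 ± 5.56 FPKM), was at 70.9 ± 1.59 on Day7 and 75.6 ± 3.41 on Day10, and ended below Day0 at 50.6 ± 1.28 on Day12 and 43.7 ± 2.80 on Day14 (0.69-fold, adjusted p = 1.83e-08). The ranges of Day0 and of Day12 or Day14 did not overlap. These Pecam1 calls held with either Day0 pair.

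Cdh5, a gene largely restricted to endothelium, rose more on Day3 (log2 change of Pecam1 relative to Cdh5 -0.54 ± 0.11, adjusted p = 3.59e-05 by limma). Its Day0 libraries held 26.4, 32.3, 31.0 and 22.9 FPKM and its Day3 libraries 60.9, 66.2, 64.0 and 62.8 FPKM (2.35-fold, log2 fold change 1.23 ± 0.11, adjusted p = 1.46e-10). Day5 was 2.17-fold, Day7 1.71-fold and Day10 1.72-fold above Day0, all called and without overlap. On Day12 and Day14 Cdh5 was 30.3 ± 1.54 and 31.9 ± 1.51 FPKM, overlapping Day0 and not called (adjusted p = 0.804 and 0.676), on the days on which Pecam1 was below Day0. Against Day0 libraries 1 and 4 alone Cdh5 was higher on Day14 by 0.32 (adjusted p = 0.0223).

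**Figure D2:**
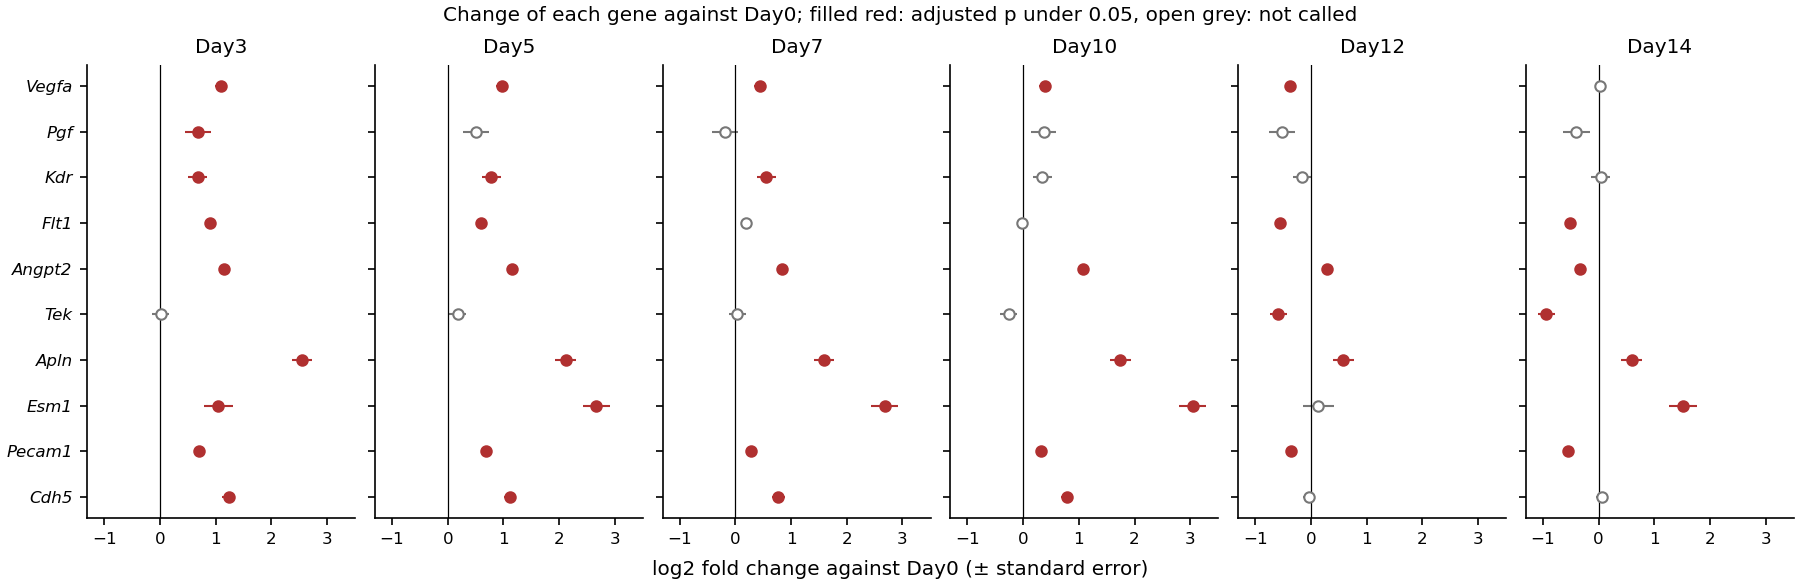
Log2 fold change against Day0 (x axis) of the 10 genes (y axis), with a panel for each wound day. Points are edgeR estimates from 4 against 4 libraries, bars are standard errors, and filled red points have an adjusted p under 0.05. On Day3 every point but that of Tek is filled and right of 0, and on Day14 Flt1, Angpt2, Tek and Pecam1 are filled and left of 0.

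Steps between neighbouring days compare wound libraries alone, although their standard errors come from the fit of all 28 libraries and so include the Day0 spread. From Day3 to Day5 only Esm1 was called higher and only Flt1 lower (12.9% and 11.4% of all tested genes). From Day5 to Day7 there was no increase and 7 members were called lower (13.9% and 14.6% of tested genes): Vegfa, Pgf, Flt1, Angpt2, Apln, Pecam1 and Cdh5. Of these, the calls of Pgf, Apln and Cdh5 were lost when certain single libraries were left out (highest adjusted p = 0.0993, 0.0547 and 0.0612). Cdh5 in particular rested on Day7 library 4 and on Day5 libraries 1 and 2. From Day7 to Day10 only Angpt2 was called, higher by 0.24 ± 0.08 (adjusted p = 0.0275, beside 14.3% of tested genes higher and 18.0% lower), and leaving out single libraries took it to adjusted p = 0.0876. This count depended on the fit. With only the 8 libraries of Day7 and Day10, Pgf (0.56, adjusted p = 0.00692), Esm1 (0.37, adjusted p = 0.0452) and Angpt2 were called higher, and Kdr (-0.20, adjusted p = 0.0129), Flt1 (-0.18, adjusted p = 0.016) and Tek (-0.29, adjusted p = 0.00103) lower. DESeq2 on all libraries called Pgf higher beside Angpt2 (adjusted p = 0.0404).

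The step from Day10 to Day12 was the sharpest. In log2 CPM all 4 Day12 libraries were below all 4 Day10 libraries in each of the 10 genes, which held for 23.5% of all tested genes, and 9 members were called lower (20.7% of tested genes). In FPKM Tek overlapped, at 9.37 in Day12 library 4 and 9.35 in Day10 library 4. Esm1 dropped by 2.91 ± 0.24 on the log2 scale (adjusted p = 1.2e-10), Apln by 1.16 ± 0.18 (adjusted p = 5.3e-06), Cdh5 by 0.82 ± 0.11 (adjusted p = 8.2e-07) and Angpt2 by 0.78 ± 0.08 (adjusted p = 1.5e-08). Tek, the member that was not called, had the smallest estimate (-0.33 ± 0.15, adjusted p = 0.087). The Kdr call (-0.50 ± 0.17, adjusted p = 0.0206) went to adjusted p = 0.0769 without Day10 library 3. From Day12 to Day14 the members separated: Vegfa and Esm1 were called higher (0.40 ± 0.10, adjusted p = 0.0024, and 1.38 ± 0.24, adjusted p = 4.7e-05; 19.9% of tested genes were called higher), and Angpt2 and Pecam1 lower (-0.63 ± 0.08, adjusted p = 9.7e-07, and -0.19 ± 0.06, adjusted p = 0.013; 25.3% lower). The Pecam1 step reached adjusted p = 0.0608 without Day14 library 1. In the joint test over the 6 wound days all 10 members were called, as were 85.1% of all tested genes.

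To ask whether the members moved more or less than 1 endothelial transcript, 9 of them were set against Cdh5, itself a member. The ratio was the difference of log2 CPM in each library, tested with limma. On Day3 Cdh5 rose by 1.23 on the log2 scale, where the median of 15 pan-endothelial genes was 0.50. Relative to Cdh5 and with all 4 Day0 libraries, Apln was called higher on all 6 days, by 1.42 ± 0.23 on Day3 (adjusted p = 1.16e-06, all libraries apart) and 0.63 ± 0.23 on Day14 (adjusted p = 0.0254, overlapping), and with the mean of 15 pan-endothelial genes as the reference it was higher still (2.21 on Day3, adjusted p = 2.7e-12, and 0.97 on Day14, adjusted p = 1.6e-05). Without single Day0 or wound libraries the Day12 and Day14 calls against Cdh5 were lost (highest adjusted p = 0.156 and 0.214). Its libraries were apart from Day0 on Day3, Day5 and Day10 and overlapped on Day7, Day12 and Day14. The size of this ratio turned on the Day0 pair. Against libraries 2 and 3 alone it was 2.20 on Day3 and 1.41 to 1.88 on the other days, all called, and against libraries 1 and 4 alone only Day3 was called (0.64, adjusted p = 0.000694), while Day5, Day7 and Day10 were 0.33, 0.16 and 0.29 (adjusted p = 0.0709, 0.392 and 0.118) and Day12 and Day14 were -0.06 and -0.15 (adjusted p = 0.841 and 0.512). Esm1 was not called against Cdh5 on Day3 (-0.28 ± 0.28) and was higher on Day5 (1.46), Day7 (1.83), Day10 (2.17 ± 0.28, adjusted p = 2.9e-08) and Day14 (1.37), and it was called on the same days against the pan-endothelial genes (2.02, 2.31, 2.51 and 1.71). These 4 calls of Esm1 held with either Day0 pair, and with libraries 1 and 4 alone Esm1 was lower relative to Cdh5 on Day3 (-0.73, adjusted p = 0.0275). Over all genes 4.88%, 4.42%, 5.12%, 4.71%, 14.6% and 17.5% were called higher relative to Cdh5 on the 6 wound days, in order, and 85.0%, 83.9%, 72.9%, 75.6%, 13.1% and 30.2% lower, while of the 9 members 1, 2, 2, 2, 1 and 2 were called higher and 4, 3, 4, 5, 3 and 4 lower.

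Tek was lower relative to Cdh5 on all 6 days, by -1.15 ± 0.14 on Day3 and -0.93 ± 0.14 on Day14. These calls held with either Day0 pair except that of Day12, which was -0.18 (adjusted p = 0.342) against libraries 1 and 4. With all 4 Day0 libraries it was below the pan-endothelial genes on each day as well, with calls on Day3 (-0.36, adjusted p = 0.034), Day10 (-0.63, adjusted p = 0.00051) and Day14 (-0.59, adjusted p = 0.0012). That direction turned on the Day0 pair: against libraries 2 and 3 alone all 6 days were called lower (-0.68 to -1.13), and against libraries 1 and 4 alone Day3 was 0.14 (adjusted p = 0.158), Day7 0.32 (adjusted p = 0.00292), Day12 0.23 (adjusted p = 0.0307) and Day14 -0.09 (adjusted p = 0.419). For Flt1 and Pecam1 the direction on Day3 turned with the reference: -0.34 and -0.54 relative to Cdh5, and 0.46 and 0.26 relative to the pan-endothelial genes, all called. On Day10 and Day14 both were lower with either reference (Flt1 -0.80 and -0.56 against Cdh5, -0.46 and -0.22 against the pan-endothelial genes). Against the pan-endothelial genes and Day0 libraries 1 and 4 alone, Flt1 on Day14 was -0.07 (adjusted p = 0.577) and Pecam1 on Day10 -0.05 (adjusted p = 0.52). Angpt2 had no call against Cdh5 from Day3 to Day12 with all 4 Day0 libraries, but was higher on Day10 and Day12 against libraries 2 and 3 alone (0.53 and 0.57, adjusted p = 0.00264 and 0.00306) and lower on Day3 against libraries 1 and 4 alone (-0.34, adjusted p = 0.0399), whereas it was called above the pan-endothelial genes on each of those days, by 0.70 on Day3 and 0.54 on Day12. Vegfa, which epidermis and macrophages make, was likewise uncalled against Cdh5 on Day3 (-0.13) and higher against the pan-endothelial genes (0.67, adjusted p = 3.6e-05).

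**Figure D3:**
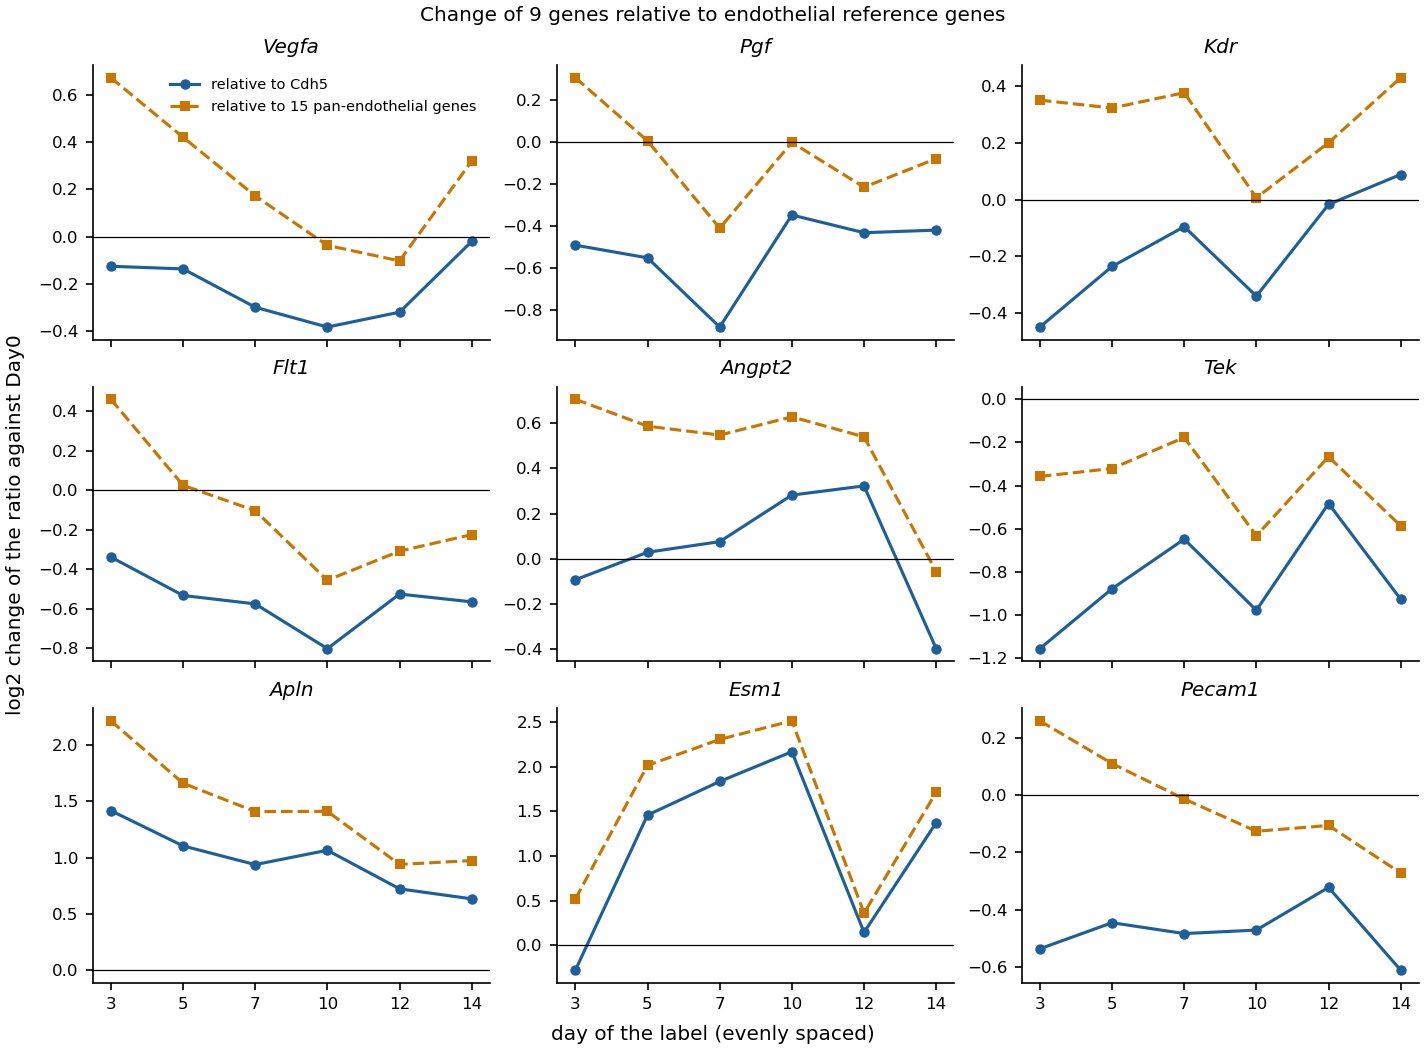
Change against all 4 Day0 libraries (y axis, log2) of the ratio of 9 genes to Cdh5 (circles) and to the mean of 15 pan-endothelial genes (squares), by wound day with days evenly spaced on the x axis. Both lines are above 0 on every day for Apln and below 0 on every day for Tek, while for the other 7 genes the reference changes the sign on Day3.

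The wider endothelial program moved in the same days. Of 15 pan-endothelial genes, 11 were called higher and 2 lower on Day3, 13 and 1 on Day5, 11 and 1 on Day7, 11 and 0 on Day10, 0 and 9 on Day12, and 1 and 6 on Day14. The shares of all tested genes were 31.8% higher and 34.8% lower on Day3, 21.7% and 25.6% on Day12, and 28.2% and 34.5% on Day14. Their summed FPKM was 235 to 271 on Day0, 361 to 394 on Day5, 334 to 366 on Day10 and 226 to 245 on Day12. Eng, the TGF-beta co-receptor endoglin, rose most on Day3 (28.7 ± 0.95 to 58.1 ± 2.26 FPKM, adjusted p = 3.04e-13). Vwf, stored von Willebrand factor, was lower on Day3 (10.0 ± 0.73 to 7.19 ± 0.32 FPKM, adjusted p = 0.000977) and on Day14 (4.82 ± 0.33 FPKM, adjusted p = 2.79e-10), and Cldn5, a tight junction gene, was lower on Day7 (24.6 ± 3.49 to 18.4 ± 1.84 FPKM, adjusted p = 0.000533). Sox18, an endothelial transcription factor, had the largest fold change of the list on Day7 (12.9 ± 2.70 to 21.6 ± 1.78 FPKM, adjusted p = 1.28e-06).

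Of 12 hypoxia response genes, 8 were called higher and 2 lower on Day3, 8 and 1 on Day5, 3 and 4 on Day7, 2 and 5 on Day10, and 1 and 9 on both Day12 and Day14. Of all tested genes, 31.8% and 34.8% were called on Day3, 25.6% and 24.8% on Day7, and 23.5% and 26.9% on Day10. The Day7 counts were near those shares. Hif1a, the oxygen-regulated subunit itself, rose most on Day3 (21.9 ± 0.93 to 88.5 ± 2.45 FPKM, log2 fold change 2.07 ± 0.06, adjusted p = 1.5e-21) and Ndrg1, a stress-induced gene, was lower (75.4 ± 5.80 to 47.3 ± 3.32 FPKM, adjusted p = 1.65e-10). The summed level was 827 to 872 FPKM on Day3, above the 577 to 725 FPKM of Day0, and 449 to 462 FPKM on Day12. Of 8 angiogenesis inhibitors 6 were called higher and 1 lower on Day3 (31.8% and 34.8% of all tested genes), and 4 higher and 2 lower on Day14. Thbs1, the matrix protein thrombospondin-1, went from 15.3 ± 7.30 to 318 ± 23.4 FPKM on Day3 (adjusted p = 2.84e-16) and stood at 74.0 ± 5.02 FPKM on Day7, while Serpinf1, encoding PEDF, was lower on Day3 (252 ± 120 to 139 ± 6.30 FPKM, adjusted p = 0.000522). The Serpinf1 call rested on Day0 libraries 2 and 3 (-1.28 against them alone), and against libraries 1 and 4 alone the change was 6.5e-05 (adjusted p = 1). The calls of the other list genes tested in this way held with either pair. Of 6 vascular Notch genes 1 was called higher and 2 lower on both Day3 and Day7, and 2 higher and 2 lower on Day5. On Day10 it was 4 higher and 1 lower (23.5% and 26.9% of all tested genes), and on both Day12 and Day14 5 higher and none lower. Notch4, an endothelial Notch receptor, was the one higher on Day3 (2.04 ± 0.06 to 4.70 ± 0.29 FPKM, adjusted p = 2.37e-14), and on Day12 it stood at 2.24 ± 0.23 FPKM and was not called (adjusted p = 0.93). The Day12 and Day14 calls were those of the other 5, on days on which hair follicle genes were high (6 of 6 called higher). On Day10, when 4 Notch genes were already called higher, 5 of 6 hair follicle genes were called lower. The part of the follicles was not tested. Jag1, a ligand that hair follicles express as well, rose by Day14 (4.59 ± 0.90 to 12.9 ± 1.42 FPKM, adjusted p = 1.15e-12).

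Pericyte genes, which mark the cells that wrap capillaries, had 3 of 6 called higher and 3 lower on Day3, and 2 higher and 1 lower on both Day7 and Day10. On Day10 23.5% of all tested genes were called higher and 26.9% lower. Their summed FPKM was 95.9 to 101 on Day0, 137 to 147 on Day7, 161 to 170 on Day10 and 98.4 to 107 on Day12. Rgs5 held the largest part of the Day7 sum, so the sum does not show a rise of the whole list. Rgs5, a regulator of G protein signalling used as a pericyte marker, was at 42.2 ± 1.91 FPKM on Day0 and 80.1 ± 4.19 on Day7 (adjusted p = 3.12e-13). Lymphatic endothelial genes ran against the blood vessel genes from Day3 to Day10, with 5 of 6 called lower and none higher on Day3 and 6 lower on Day10 (34.8% and 26.9% of all tested genes were called lower). On Day12 and Day14, when more pan-endothelial genes were lower than higher, 3 and 6 of the lymphatic genes were called lower. From Day10 to Day12 the lists moved in opposite directions, with 5 of 6 lymphatic genes called higher and none lower (sums of 67.2 to 76.4 and 187 to 259 FPKM) and all 15 pan-endothelial genes called lower. Over that step 18.7% of all tested genes were called higher and 20.7% lower. Lyve1, a lymphatic and macrophage receptor, was at 19.8 ± 8.14 FPKM on Day0 and 3.85 ± 0.40 on Day14 (adjusted p = 1.8e-12).

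**Figure D4:**
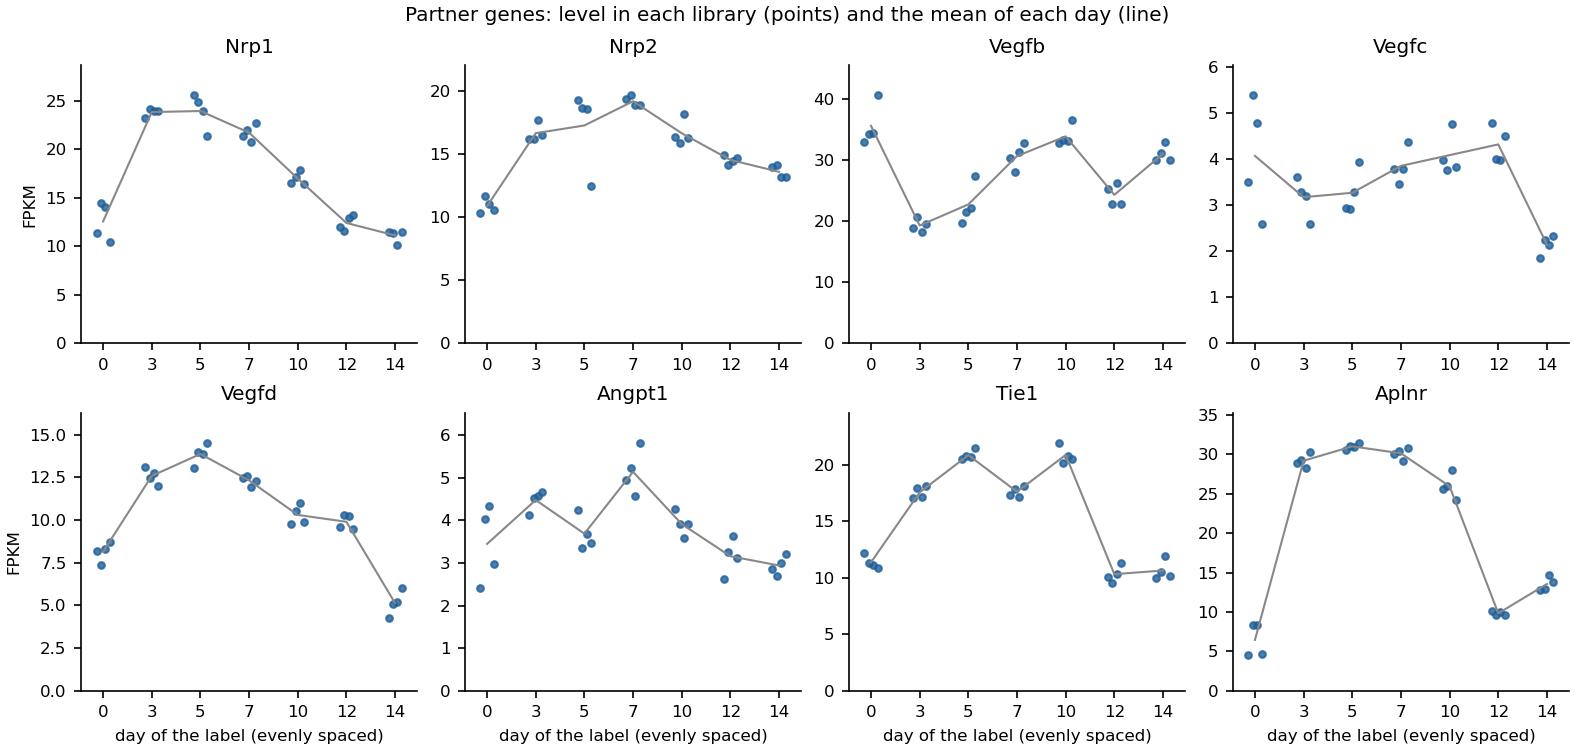
FPKM (y axis, from 0) of 8 partner genes of the VEGF, angiopoietin and apelin axes in the 28 libraries, with days evenly spaced on the x axis. Points are libraries and the line joins the means of 4 libraries. Aplnr holds near 30 FPKM from Day3 to Day7, and Vegfb is lowest on Day3 at 19.3 FPKM.

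Markers of other cells moved with the members. Against Day0, 31.8% of all tested genes were called higher and 34.8% lower on Day3, and 28.2% and 34.5% on Day14. Of 6 macrophage genes, 6 were called higher on Day3 and Day5, with a summed FPKM of 637 to 864 on Day0 and 1325 to 1377 on Day3, and none higher with 6 lower on Day14. Of 6 neutrophil genes 5 were higher on Day3, with sums of 14.9 to 63.2 FPKM on Day0 and 7445 to 9523 on Day3. Of 5 platelet genes 4 were higher on Day3, with sums of 94.8 to 144 and 432 to 439 FPKM, and on Day14 the sum was 26.8 to 30.1 FPKM with 2 of the 5 called higher and 1 lower. The lower one, Pf4 (platelet factor 4), went from 124 ± 22.1 on Day0 to 25.7 ± 1.66 FPKM on Day14 and made up most of the sum. Ly6g, a defining neutrophil gene, had no count in any Day0 or Day12 library, and every other gene of the lists was counted on every day. Pecam1, which platelets and leukocytes carry, was high on Day3 and low on Day14, as were the macrophage and platelet sums, and their part in its level was not tested.

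Brown fat genes also changed over the time course. The sources used here do not say where on the back the skin of each day was taken, so a difference in site between days, Day0 or wound days, cannot be told apart from a change with wounding or healing. Ucp1, the uncoupling protein of brown and beige adipocytes, was at 0.42 ± 0.31 FPKM on Day0, 516 ± 63.5 on Day3, 333 ± 21.1 on Day7, 187 ± 6.81 on Day10, 4.93 ± 1.54 on Day12 and 345 ± 57.8 on Day14. Of the 5 genes on that list, 4 were called higher and 1 lower on Day3, Day5 and Day7, 4 higher on Day10, 2 higher and 2 lower on Day12, and 5 higher on Day14. The summed FPKM was 252 to 338 on Day0, 955 to 1237 on Day3, 644 to 693 on Day10, 159 to 173 on Day12 and 780 to 1008 on Day14. Brown fat is a densely vascular tissue, and the Day10 to Day12 drop of the members, 9 of 10 called, fell on the same days as the drop of its genes. The rise of Esm1 and Vegfa from Day12 to Day14 likewise fell with a rise of its genes, whereas Angpt2 and Pecam1 were called lower over that last step. Hair follicle genes rose from Day10 to Day12, from sums of 105 to 121 FPKM to 2007 to 2674. The part of either in the members' changes was not tested. Skeletal muscle genes were lower on all 6 wound days (6 of 6 called), with sums of 8323 to 13707 FPKM on Day0 and 1847 to 2373 on Day3. Of 6 dermal fibroblast genes 1 was called higher and 4 lower on Day3. They summed to 3048 to 11799 FPKM on Day0, and the Day0 libraries low in them were those low in Kdr and Tek.

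**Figure D5:**
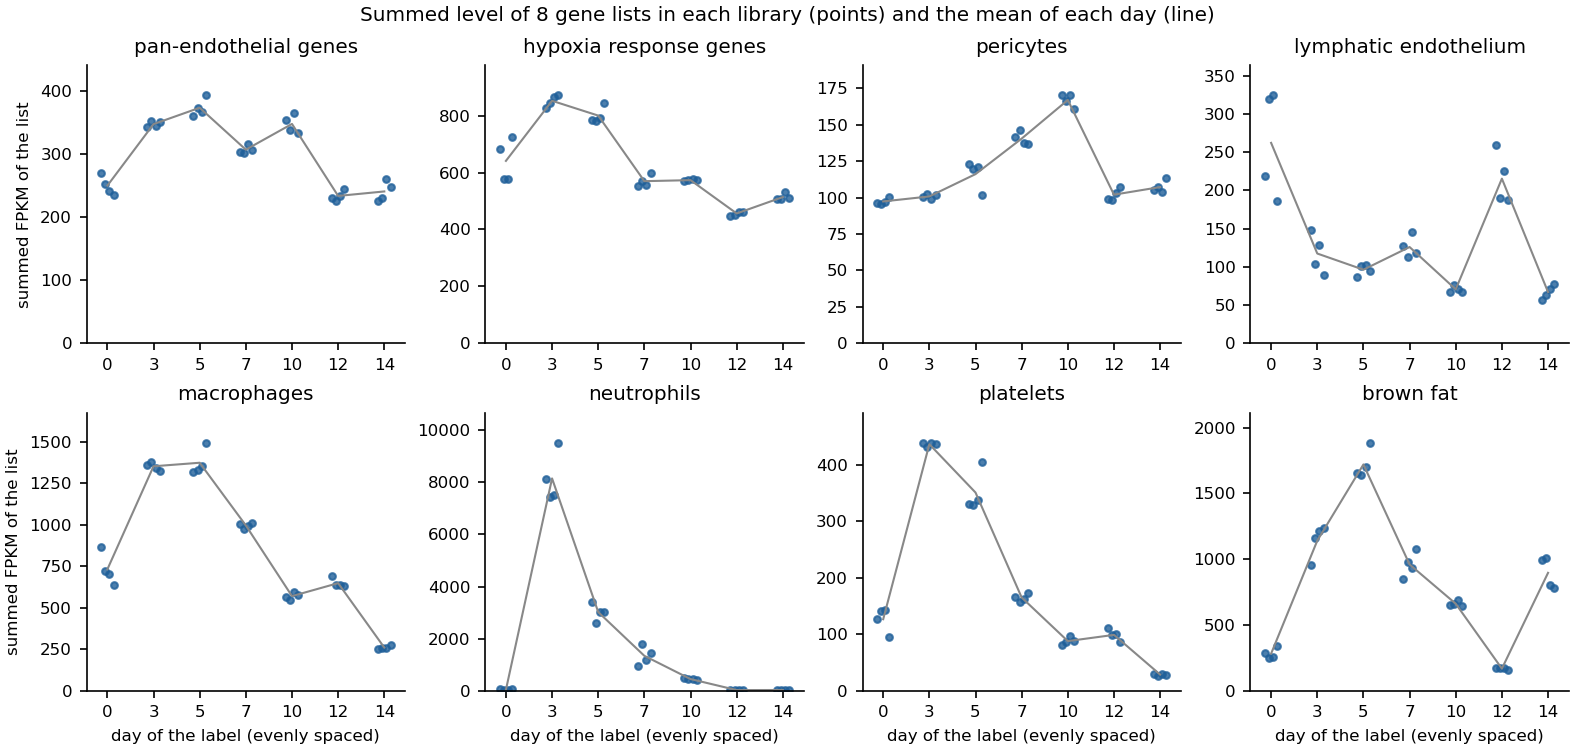
Summed FPKM (y axis, from 0) of 8 gene lists in the 28 libraries, with days evenly spaced on the x axis. Points are libraries and the line joins the means of 4 libraries. The pan-endothelial sum is raised from Day3 to Day10, platelet and neutrophil sums peak on Day3, and the brown fat sum is 159 to 173 FPKM on Day12, between 644 to 693 on Day10 and 780 to 1008 on Day14.

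The rest of the fixed lists behaved as follows, beside 31.8% of all tested genes called higher and 34.8% lower on Day3. Of 6 basal and wound edge keratinocyte genes 3 were higher and 1 lower on Day3, with Krt6b, a keratin of activated epidermis, at 302 ± 24.7 FPKM against 3.64 ± 4.82 on Day0. Suprabasal keratinocyte genes were lower on Day3, 5 of 5, among them Krt10 (177 ± 9.88 to 40.97 ± 6.84 FPKM). Of 6 adipocyte genes 1 was higher and 3 lower on Day3, the former being the fatty acid carrier Fabp4 (1189 ± 201 to 3756 ± 364 FPKM), a gene that capillary endothelium also expresses.

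Across the 28 libraries the members most alike in log2 level were Flt1 and Pecam1 (Pearson r = 0.937), Pecam1 and Cdh5 (0.910) and Vegfa and Flt1 (0.904). The least alike were Tek and Esm1 (0.226) and Flt1 and Esm1 (0.270). These are descriptions over libraries that share 7 days and have no test. Among 14674 expressed genes, those nearest to each member included established endothelial genes for several of them. Nearest to Kdr was Pcdh12, an endothelial protocadherin (r = 0.931), followed by the adipose and liver genes Klb (0.926) and Fasn (0.914). Nearest to Cdh5 was Ets1, a transcription factor of endothelium and lymphocytes (0.958), and nearest to Pecam1 was S1pr1, a sphingosine-1-phosphate receptor of endothelium and lymphocytes (0.977). The nearest gene to Esm1 was the pericyte gene Rgs5 (0.903), then Clec14a, an endothelial lectin. Apln was nearest to 2610528A11Rik (0.980), followed by the myeloid gene Stfa1 and the wound keratin Krt6a. For Vegfa the nearest was Ccdc69 (0.949), for Pgf 2200002D01Rik (0.891), for Flt1 Tgoln1 (0.973), for Angpt2 Tnfrsf23 (0.975) and for Tek the receptor gene Tgfbr2 (0.929).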

How the data were processed

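Total RNA from mouse skin was extracted with TRIzol and made into libraries with the VAHTS Universal V6 kit. Reads were handled by the authors with fastp and R 3.2.0 on mm10, per the submitters' processing notes. The aligner, counter, annotation and strandedness are not given in the sources used here. The deposited counts are whole-number reads per gene, not normalized, and the deposited FPKM values equal each count divided by a gene length and the library total.

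Here the counts of all 28 libraries were fitted by day with edgeR 4.0.16 (TMM factors, filterByExpr, quasi-likelihood test, 21 residual degrees of freedom, no covariate), in R 4.3.3. Ratios to Cdh5 were tested with limma 3.58.1 on log2 CPM with a prior count of 2. DESeq2 1.42.0, other filters, FPKM on a log2 scale with pseudocounts of 1 and 0.1, and leaving out each library were alternatives. On simulated data edgeR recovered 193 of 200 changed genes on Day3 against Day0, with 5 false calls. The simulation gave each gene the same spread on every day and changed only those well-counted genes, by a fixed fold. It therefore lacked the wider Day0 spread (coefficient of variation 26.4%, against 6.23% on Day3) and the large share of genes called. It gives no error rate for the calls against Day0. Depth of 36706513 to 40655764 counts leaves genes such as Esm1 (from 11 counts) least precise.

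The members and gene lists were chosen with earlier results of these data known. Named were the 10 members, the genes of each list with the highest and lowest change on Day3, Day7 and Day14, and the 3 genes nearest to each member by Pearson r among genes of at least 1 CPM on average. Angpt1 and Tie1 were chosen after their values were seen. No 2 libraries of a day agreed within counting noise. Same-numbered libraries of different days were not paired (1 of 84 pairs correlated above 0.1), and the fit with a replicate block is described with the alternatives. Both sexes were used per the study's methods, but Xist had 0 to 13 counts in every library.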

Additional observations from a re-analysis of the deposited data

Results flagged for a closer look

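In 3 of the 70 groups of 4 libraries (10 genes on 7 days), a single library lay far from the other 3, where chance alone flags about 1 group in 20, or 3.5 of 70. Pecam1 in Day3 library 1 was 87.4 FPKM beside 92.3 to 93.1 in the others. Cdh5 was low in library 4 of Day5 (50.4 FPKM beside 61.4 to 63.3) and in library 4 of Day7 (35.0 FPKM beside 51.9 to 53.6). Without that Day7 library the step of Cdh5 from Day5 to Day7 was no longer called.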

How the results depend on the processing

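Of the members' changes in counts called in the fit of all 28 libraries, none changed sign under the alternatives run. Relative to Cdh5, called changes did change sign, as given below. Calls lost in fits of 8 libraries were those of Pgf and Kdr given above and, on Day12, Vegfa (adjusted p = 0.0644), Tek (0.0787) and Apln (0.139), and on Day14 Angpt2 (0.0653) and Apln (0.0866). These fits hold fewer samples. Counting limits Esm1 most, and the Day0 spread limits Pgf, Kdr, Tek and Apln.

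Some uncalled changes took the other sign. With DESeq2's size factors in edgeR, Angpt2 from Day3 to Day5 was -0.0046 and Esm1 from Day5 to Day7 -0.0014, and with DESeq2 itself they were -0.0046 and -0.0015. Tek on Day3 was -0.045 without composition normalization, -0.0040 without a filter, -0.011 with at least 10 counts in every library and -0.017 in the fit of 8 libraries, where Tek on Day7 was -0.0019. Flt1 on Day10 was 0.040 and Cdh5 on Day12 0.11 without composition normalization, where Apln from Day12 to Day14 was -0.011. With limma on log2(FPKM + 1), filtered or not, Flt1 on Day10 was 0.036, Kdr on Day12 0.077, Cdh5 on Day12 0.11 and Apln from Day12 to Day14 -0.010, and with a pseudocount of 0.1 they were 0.044, 0.099, 0.12 and -0.013. With Xist as a covariate, Cdh5 from Day7 to Day10 was -0.0012. The cause was not tested.

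Counts of called members moved as follows. For the alternatives in this section other than the study's criteria, the share of all tested genes called was not computed. Their counts cannot be set against such a share. The study's criteria gave 1, 2, 2, 2, 0 and 1 higher on the 6 wound days and 0 lower on Day12 and Day14. In fits of 8 libraries, which leave out the Day0 spread between wound days, Day12 had 1 higher and 2 lower, Day14 1 higher, Day3 to Day5 2 lower, and Day7 to Day10 3 higher and 3 lower. DESeq2 gave 2 lower from Day3 to Day5 and 2 higher from Day7 to Day10, the latter also without composition normalization. Without a filter 1 was lower from Day12 to Day14. With limma on log2(FPKM + 1) Day12 had 2 lower and Day7 to Day10 2 higher. With the mean FPKM filter Day14 had 1 higher, Day3 to Day5 0 higher and 2 lower, Day7 to Day10 2 higher and Day12 to Day14 1 higher. With a pseudocount of 0.1 Day12 had 2 lower and Day5 to Day7 4 lower.

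With Day0 libraries 2 and 3 alone, 1 member was lower on each of Day3, Day5, Day7 and Day10, and reversed values were Tek -0.38, -0.22 and -0.36 on Day3, Day5 and Day7, Pgf 0.40, 0.060 and 0.18 on Day7, Day12 and Day14, Kdr -0.12 and -0.42 on Day10 and Day14, and Vegfa -0.15 and Cdh5 -0.11 on Day14. With libraries 1 and 4 alone, 1 was lower on Day7, 1 higher on Day12 and 4 higher on Day14, and reversed values were Pgf -0.046, Flt1 0.13 and Tek 0.30 on Day10, and Kdr 0.56, Esm1 -0.11 and Cdh5 0.17 on Day12. Relative to Cdh5, libraries 2 and 3 gave 2 higher on Day12 and reversed values of Pgf 0.17, Angpt2 0.15 and Esm1 0.17 on Day3, Pgf 0.11, 0.32, 0.23 and 0.25 on Day5, Day10, Day12 and Day14, and Kdr -0.32 on Day14. Libraries 1 and 4 gave 1 higher on Day5 and Day10 and reversed values of Kdr 0.17, 0.31, 0.064 and 0.39 on Day5, Day7, Day10 and Day12, Angpt2 -0.22 and -0.17 on Day5 and Day7, Apln -0.056 and Esm1 -0.31 on Day12, and Vegfa 0.011 and Apln -0.15 on Day14.

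Relative to the pan-endothelial genes, Day0 libraries 2 and 3 alone gave 2 lower on Day3, 2 lower on Day5, 3 lower on Day7, 5 lower on Day10, 5 lower on Day12 and 2 higher on Day14, and reversed values of Kdr -0.26, -0.28, -0.23, -0.60, -0.40 and -0.18 on Day3, Day5, Day7, Day10, Day12 and Day14, Flt1 -0.13 on Day5, Vegfa -0.060 on Day7 and Pgf 0.054, 0.46, 0.25 and 0.39 on Day7, Day10, Day12 and Day14. Libraries 1 and 4 alone gave 0 lower on Day3, 6 higher on Day7, 1 lower on Day7, 1 lower on Day10 and 4 higher on Day12, and reversed values of Pgf -0.16 and -0.46 on Day3 and Day5, Tek 0.14, 0.18, 0.32 and 0.23 on Day3, Day5, Day7 and Day12, Flt1 0.054 on Day7, Pecam1 0.065 on Day7 and Vegfa 0.20 and 0.13 on Day10 and Day12. Of the list genes recomputed with each pair, Serpinf1 on Day3 alone changed (6.5e-05 with libraries 1 and 4). These fits were chosen after the data were seen, and the share of all tested genes called was not computed for them.

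With the pan-endothelial genes as the reference in place of Cdh5, the counts were 5 higher and 1 lower on Day3, 4 and 0 on Day5, 0 lower on Day7, 3 lower on Day10, 2 higher and 1 lower on Day12 and 4 higher on Day14. The share of all genes called with this reference was not computed. A change of reference shifts every gene, so these counts are not a result about the members. Reversed on Day3 were Vegfa 0.67, Pgf 0.31, Kdr 0.35, Flt1 0.46, Angpt2 0.70, Esm1 0.52 and Pecam1 0.26, on Day5 Vegfa 0.42, Pgf 0.0070, Kdr 0.32, Flt1 0.024 and Pecam1 0.11, on Day7 Vegfa 0.17 and Kdr 0.38, on Day10 Kdr 0.0064, on Day12 Kdr 0.20 and on Day14 Vegfa 0.32.

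Leaving out single libraries, the ranges that crossed 0 were for Tek -0.097 to 0.18 on Day3 and -0.12 to 0.21 on Day7, Pgf -0.36 to 0.076 on Day7, Flt1 -0.066 to 0.051 on Day10, Kdr -0.31 to 0.061 on Day12 and -0.054 to 0.30 on Day14, Esm1 -0.11 to 0.29 and Cdh5 -0.11 to 0.041 on Day12, and Vegfa -0.0092 to 0.16 on Day14. Between neighbouring days they were Angpt2 -0.072 to 0.022 and Pecam1 -0.086 to 0.0088 from Day3 to Day5, Esm1 -0.062 to 0.073 from Day5 to Day7, Vegfa -0.089 to 0.0042, Pecam1 -0.00011 to 0.066 and Cdh5 -0.11 to 0.066 from Day7 to Day10, and Apln -0.092 to 0.067 from Day12 to Day14. Relative to Cdh5 they were Angpt2 -0.17 to 0.00092, -0.053 to 0.12 and -0.064 to 0.17 on Day3, Day5 and Day7, Kdr -0.26 to 0.040, -0.19 to 0.12 and -0.082 to 0.22 on Day7, Day12 and Day14, Esm1 -0.11 to 0.31 on Day12 and Vegfa -0.14 to 0.12 on Day14. Counts ran from 0 to 1 lower on Day10, 1 to 2 lower from Day3 to Day5, 0 to 1 higher and 0 to 1 lower from Day7 to Day10, and 1 to 2 lower from Day12 to Day14. Relative to Cdh5 they ran from 3 to 5 lower on Day10, 0 to 2 higher on Day12 and 1 to 2 higher on Day14.

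The replicate block, with numbers that pair nothing in the labels, added calls for Pgf on Day5 (0.53, adjusted p = 0.0466) and Flt1 on Day7 (0.18, adjusted p = 0.0498) and, relative to Cdh5, for Pgf on Day5 (-0.55, adjusted p = 0.0487), Vegfa on Day7 (-0.30, adjusted p = 0.0466) and Angpt2 on Day10 (0.28, adjusted p = 0.0472), and changed no other call. Correlations between same-numbered libraries ran from -0.076 to 0.18, and 8 of 28 libraries correlated best with their own number.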
